A study of Mus musculus with 6 samples.

Results

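Collagens, laminins and integrins form the extracellular matrix under a cell sheet and the receptors that hold the cells to it. The genes described here were taken by symbol: every row of the gene tables named as a collagen alpha chain, a laminin chain or an integrin subunit, with the Itgb1bp and Itgb3bp genes left out. This gave 83 of 24054 genes, of which 44 encode collagen chains, 11 laminin chains and 28 integrin subunits or integrin beta-like proteins.

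RNA-seq was performed on mouse embryonic stem cells (ESCs) differentiating to definitive endoderm, with 6 samples in all. Every sample came from 1 double knock-in (DKI) ES cell line, heterozygous for a Foxa2-Venus and homozygous for a Sox17-Cherry fusion reporter. The d0 cells (2 samples) were undifferentiated, Venus-negative and Cherry-negative ESCs grown on gelatine in ES medium. The d3F cells (2 samples) were sorted as Venus-positive and Cherry-negative on day 3, and the d5FS cells (2 samples) as Venus-positive and Cherry-positive on day 5, both after daily Wnt3a (1 ng/ml) and Activin A (10 ng/ml) on gelatine. Since the line was maintained on mouse feeder cells before it was moved to gelatine, and since it is 1 line, the values describe these cultures and not embryos.

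As background, type IV collagen and laminins make up the basement membrane, in which laminin trimers of an alpha, a beta and a gamma chain bind cells while type IV collagen trimers build the supporting network. Fibrillar collagens form the tensile fibres of connective tissue. Integrins are pairs of an alpha and a beta subunit that bind these proteins from the cell surface, and laminin and type IV collagen are known for their strong production by early endoderm of the mouse embryo.

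Expected counts summed to between 16457728 and 22768686 per sample, and the 83 genes took between 0.163% and 0.469% of them. Levels are given as CPM, the counts per 1000000 counts of a library after TMM scaling, in the order replicate 1 and replicate 2. Each population followed its label: Pou5f1, the highest of 4 pluripotency markers, was at 864 and 1367 CPM in d0 and at 52.9 and 43.7 CPM in d5FS, whereas Cer1, the highest of 5 definitive endoderm markers in d5FS, rose from 1.40 and 0.615 CPM to 295 and 482 CPM. The summed TPM of the 4 pluripotency markers lay at 553 to 615 in d0, 145 to 459 in d3F and 17.1 to 33.8 in d5FS, and that of the 5 endoderm markers at 0.87 to 1.54, 62.5 to 81.5 and 133 to 147. In each population replicate 2 held more of the short noncoding RNAs Rmrp and Rpph1 (7.30% to 10.3% of counts against 3.99% to 6.45% in replicate 1) and more histone counts (2.58% to 4.97% against 1.31% to 3.37%). The part of this difference in the results below was not tested. The study's sample list names 1 library per population as mRNA and 1 as total RNA, without tying either to a replicate number.

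The first question was which of these genes differed between the populations. Calls came from edgeR's quasi-likelihood test over 14539 genes and needed an adjusted p (Benjamini-Hochberg) below 0.05 with a change of more than 1 log2 unit in either direction. Of the 83 genes, 69 had enough counts to be tested. From d0 to d3F, 8 of the 69 were higher and 1 was lower, against 2.80% and 1.90% of all genes tested. From d3F to d5FS, 2 were higher and 0 lower in this test (background 1.08% and 0.461%). These counts were 18 and 5 at an unadjusted p under 0.05, 11 and 3 in the DESeq2 Wald test and 13 and 5 without a filter on low counts. Over all genes, edgeR called 157 higher and 67 lower, the DESeq2 Wald test 604 and 455, and the fit without a filter 760 and 663. No count over all genes is given for the unadjusted p. In the tests of changes beyond 1 log2 unit the counts among the 83 genes were 4 and 0 with DESeq2 and 1 and 0 with glmTreat. Over all genes these tests called 137 and 52, and 54 and 16. From d0 to d5FS, 24 were higher and 5 lower (background 12.4% and 10.4%). The median log2 fold change of the 69 genes was 0.35, 0.55 and 1.00 in the 3 comparisons, beside -0.01, 0.01 and 0.02 over all genes tested. Since the comparisons share samples, their counts are not independent of each other. In these bulk libraries, fewer cells that express a gene and less of its RNA per cell cannot be told apart.

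The 24 genes higher in d5FS were 16 collagens, 4 laminins and 4 integrins, and the 5 lower ones were Col18a1, Col6a5, Itga1, Itgal and Itgb7. The largest rises were those of Col8a2, Col1a2 and Col23a1, and the largest fall was that of Itgb7. Single libraries moved these counts, and calls over all genes tested became fewer in the same fits. Without d5FS replicate 1, 8 genes were higher and 1 was lower, without d0 replicate 2 these numbers were 12 and 3, without d0 replicate 1 they were 15 and 5, and without d5FS replicate 2 they were 21 and 2. Of the 29 calls, 9 held with any 1 of the 6 samples left out: Col18a1, Col1a2, Col23a1, Col3a1, Col4a1, Col4a2, Col8a2, Itga5 and Lamb3. From d0 to d3F, Col23a1 and Col8a2 did so, and the 8 higher genes fell to 2 without d3F replicate 2 and to 4 without d0 replicate 2. The 1 lower gene of that comparison, Itgal, was not called in 5 of the 6 fits that left out a sample, and 3 genes were lower without d0 replicate 1.

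**Figure D1:**
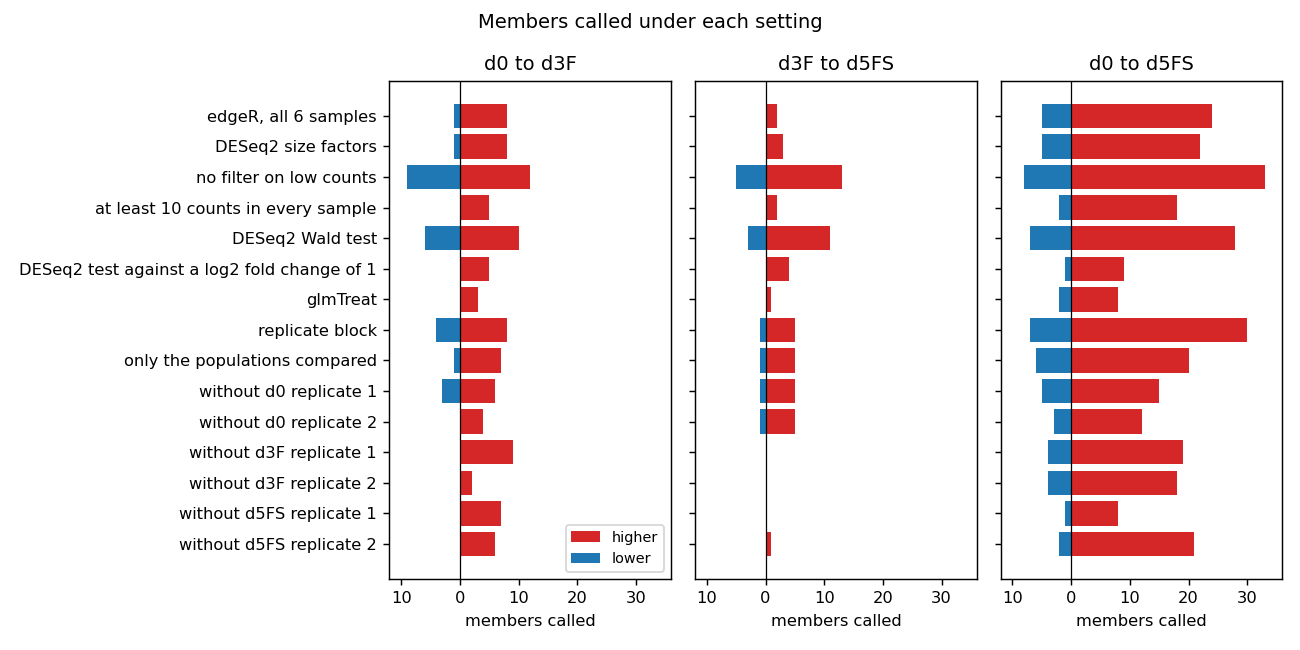
Number of the 83 genes called higher (red, to the right of 0) and lower (blue, to the left) in the 3 comparisons (panels) in the edgeR fit of all 6 samples and in 14 alternatives (rows), 6 of which leave out 1 sample. From d0 to d5FS the number of higher genes runs from 8 (glmTreat, and without d5FS replicate 1) to 33 (no filter on low counts), around 24 in the fit of all samples.

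**Figure D2:**
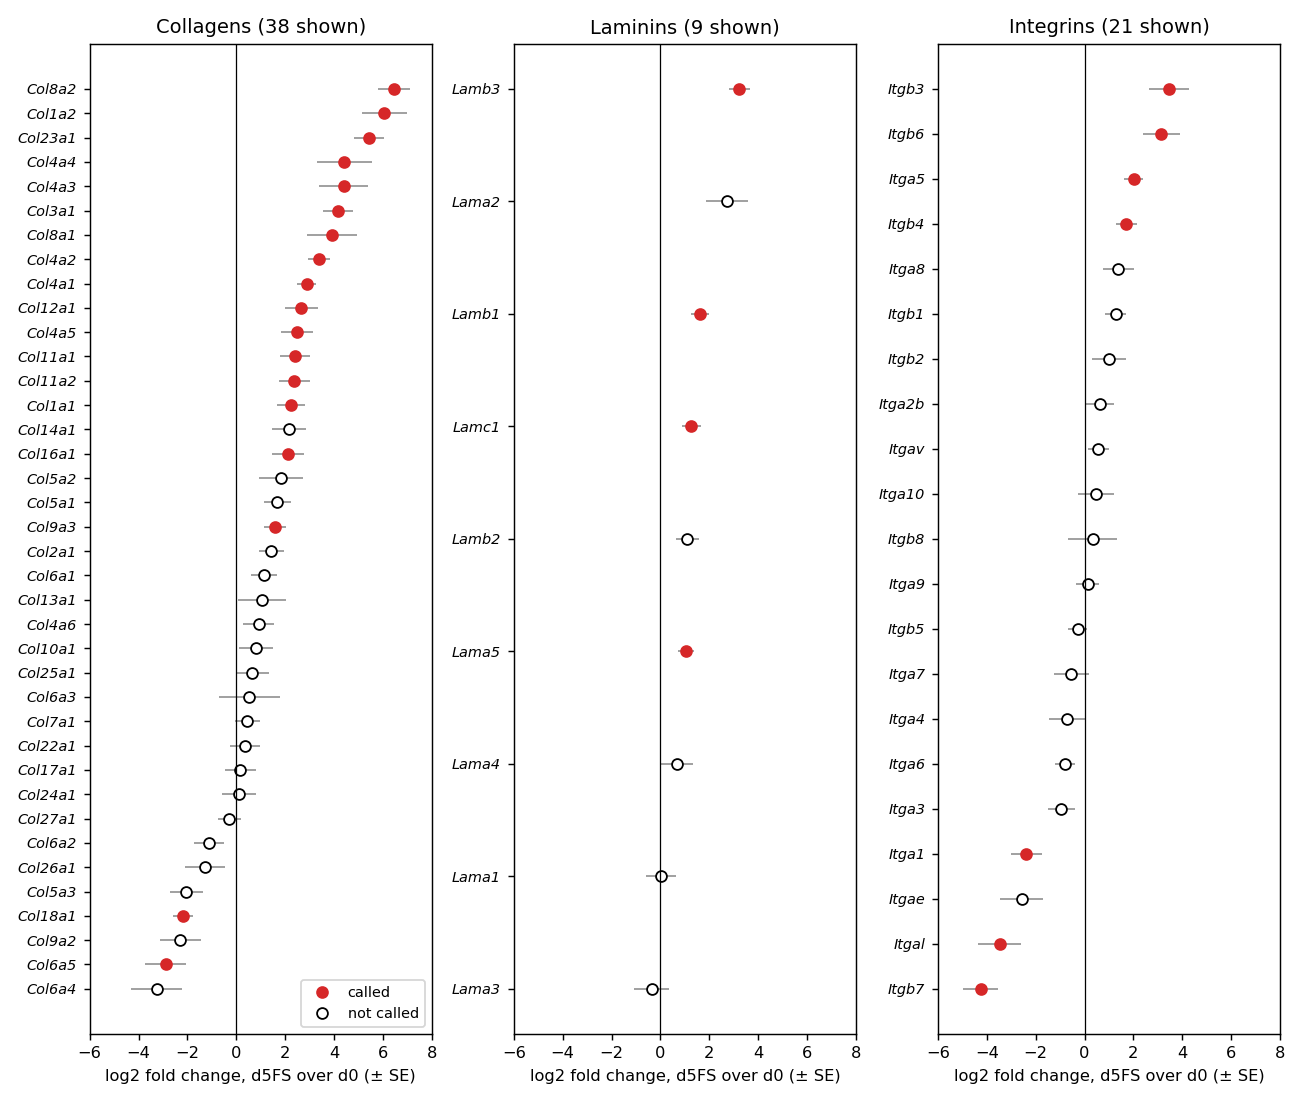
Log2 fold change from d0 to d5FS (x axis, ± SE) of the 38 tested collagens, 9 of the 10 tested laminins and the 21 tested integrins, ordered by value, with called genes as filled and others as open circles. The collagens reach from -3.26 for Col6a4 to 6.44 for Col8a2, and the 3 called integrins on the left are Itga1, Itgal and Itgb7.

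The sequence before the start of transcription is shown for the genes whose d0 to d5FS call held with any sample left out, so that genes that rose together can be set beside Col18a1, which fell. RefSeq windows (GRCm38.p6, the mm10 build) were matched by symbol for 60 of the 83 genes, and for each the longest stretch of the 250 bases before the start that overlaps no exon of GENCODE M21 was kept. Lamb3 and Col18a1 each have 2 windows, of which the one with the longer stretch is shown. Col4a1 and Col4a2 had no such stretch, because their first exons overlap head to head, and their windows are therefore not printed. Capitals mark GGGCGG (a GC box) and TATAAA on either strand, and the other motifs searched, TGTTTAC (forkhead) and GATAA (GATA), did not occur in these stretches.
Col8a2, chr4:126286544-126286792, plus strand: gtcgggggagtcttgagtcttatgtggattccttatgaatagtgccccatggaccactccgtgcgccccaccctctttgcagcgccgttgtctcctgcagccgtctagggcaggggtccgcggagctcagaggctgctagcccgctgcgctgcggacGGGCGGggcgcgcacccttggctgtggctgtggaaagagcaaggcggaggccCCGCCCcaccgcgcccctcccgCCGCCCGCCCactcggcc
Col1a2, chr6:4505370-4505492, plus strand: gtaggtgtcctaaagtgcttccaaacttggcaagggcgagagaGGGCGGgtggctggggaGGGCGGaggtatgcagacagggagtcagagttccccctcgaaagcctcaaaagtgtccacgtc
Col23a1, chr11:51289670-51289919, plus strand: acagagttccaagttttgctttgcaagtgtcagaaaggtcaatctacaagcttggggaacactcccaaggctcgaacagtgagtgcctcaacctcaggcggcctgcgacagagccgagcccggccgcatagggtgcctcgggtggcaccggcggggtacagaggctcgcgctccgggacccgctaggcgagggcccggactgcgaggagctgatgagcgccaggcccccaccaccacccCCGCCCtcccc
Col3a1, chr1:45311288-45311537, plus strand: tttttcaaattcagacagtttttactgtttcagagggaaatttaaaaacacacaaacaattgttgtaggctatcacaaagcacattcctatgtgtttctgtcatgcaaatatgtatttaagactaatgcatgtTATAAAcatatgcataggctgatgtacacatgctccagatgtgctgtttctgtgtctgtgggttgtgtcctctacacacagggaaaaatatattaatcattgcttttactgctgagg
Lamb3, chr1:193301744-193301992, plus strand: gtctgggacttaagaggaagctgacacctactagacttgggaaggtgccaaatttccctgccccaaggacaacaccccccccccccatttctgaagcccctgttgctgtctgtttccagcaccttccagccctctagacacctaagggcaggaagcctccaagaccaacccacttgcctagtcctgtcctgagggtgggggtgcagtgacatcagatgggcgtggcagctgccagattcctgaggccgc
Itga5, chr15:103366792-103367041, minus strand: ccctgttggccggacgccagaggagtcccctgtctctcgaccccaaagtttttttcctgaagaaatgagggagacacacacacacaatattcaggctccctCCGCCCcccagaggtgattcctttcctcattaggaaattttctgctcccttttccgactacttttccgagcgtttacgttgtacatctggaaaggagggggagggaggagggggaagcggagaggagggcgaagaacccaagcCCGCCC
Col18a1, chr10:77166549-77166780, minus strand: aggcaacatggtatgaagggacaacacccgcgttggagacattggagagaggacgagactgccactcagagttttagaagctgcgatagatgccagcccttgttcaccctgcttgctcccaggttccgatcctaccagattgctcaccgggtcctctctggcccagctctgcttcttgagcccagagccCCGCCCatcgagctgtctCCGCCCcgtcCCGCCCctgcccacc
Shares were counted over whole windows, including bases that overlap exons and windows without a kept stretch, and not over the stretches shown. GGGCGG on either strand was in 63.2% of the 19 windows (17 genes) of the genes higher in d5FS. It was in 48.5% of the 66 windows of all matched genes and in 32.7% of 32851 windows of all genes. TATAAA was in 10.5%, 7.58% and 12.4% of these windows, GATAA in 5.26%, 12.1% and 22.6%, and TGTTTAC in 0 of 19, 1.52% and 3.17%. Both the rising Col8a2 and the falling Col18a1 held GC boxes, 4 and 3 in the stretches shown, whereas the stretch of Lamb3 held none of the 4 motifs. These are matches of letters and not measured binding sites.

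Among the 9 collagens of basement membranes, 5 of 8 tested were higher and 1 was lower in d5FS than in d0. Col4a1 (chr8:11198423-11312826, minus strand, mm10) and Col4a2 (chr8:11312805-11449287, plus strand) encode the chains of the most widespread type IV collagen and lie head to head, with 22 bases shared by the annotated genes, where reads cannot be assigned by strand because no strand setting is stated. Col4a1 was at 35.9 and 31.0 CPM in d0, 93.5 and 168 CPM in d3F, and 281 and 210.5 CPM in d5FS. Col4a2 was at 13.03 and 16.4 CPM, 46.4 and 102 CPM, and 183 and 122.5 CPM in the same samples. No population overlapped another for either gene, and both stood lowest in d0 and highest in d5FS. The rise from d0 to d3F was 1.97 ± 0.36 (log2 ± SE; adjusted p = 0.0247) for Col4a1 and 2.34 ± 0.43 (adjusted p = 0.0248) for Col4a2. From d0 to d5FS it reached 2.88 ± 0.38 (adjusted p = 0.00312) and 3.38 ± 0.45 (adjusted p = 0.0033). The step from d3F to d5FS, 0.91 and 1.04, did not pass the test (adjusted p = 0.225 and 0.235). Per kilobase of effective length, Col4a1 was 1.49 to 2.67 times as high as Col4a2 in the 6 samples. Without d3F replicate 2 or without d0 replicate 2, the d0 to d3F call of both genes was lost, and that of Col4a2 also without d0 replicate 1.

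The other type IV chains form more restricted trimers and are arranged in the same way, with 71 bases between the GENCODE models of Col4a4 and Col4a3 on chromosome 1 and 1308 bases between Col4a6 and Col4a5 on chromosome X. Col4a3 was at 0.175 and 0.0513 CPM in d0 and at 4.31 and 0.860 CPM in d5FS, and Col4a4 at 0.0877 and 0.154 CPM in d0 and at 4.77 and 0.573 CPM in d5FS. Both d5FS samples lay above both d0 samples, but replicate 1 was far above replicate 2. Both were called from d0 to d5FS (4.40 ± 1.01, adjusted p = 0.0186, and 4.42 ± 1.12, adjusted p = 0.0262), and both calls were lost without d5FS replicate 1 or d0 replicate 2 and, for Col4a4, without d0 replicate 1. Col4a5 rose by 2.49 ± 0.66 (adjusted p = 0.029), from 2.19 and 2.82 CPM to 22.4 and 5.90 CPM, a call lost without d5FS replicate 1 or either d0 sample. Col4a6 was at 1.49 and 0.923 CPM in d0, 4.06 and 5.10 CPM in d3F, and 3.46 and 1.15 CPM in d5FS, with overlap between d0 and d5FS (0.92, adjusted p = 0.318). Col4a3 and Col4a4 remained below 5 CPM in every sample. The type IV chains Col4a1 and Col4a2 were the highest basement membrane collagens of d5FS, at 38.3 ± 7.84 and 24.5 ± 6.85 CPM per kilobase (SD, n = 2).

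Col18a1, which encodes the basement membrane collagen that carries endostatin, went the other way. It was at 334 and 463 CPM in d0, 143 and 137 CPM in d3F, and 122 and 55.5 CPM in d5FS. The d0 samples lay above all others. The fall to d5FS was called (-2.17 ± 0.41, adjusted p = 0.0101), whereas the fall to d3F was not (-1.51 ± 0.41, adjusted p = 0.0731). By d0 means, Col18a1 took 90.2% of the summed level per kilobase of the basement membrane collagens and 22.7% of that of all 83 genes. This was the largest mean share of the 83, but the replicates differed in order. In d0 replicate 1 Col18a1 was below Itgb1 (69.0 against 91.2 CPM per kilobase), and in d0 replicate 2 above it (95.4 against 42.0). In d5FS Col4a1 took the first place among the basement membrane collagens with 44.9%. Col7a1, the collagen of anchoring fibrils, lay between 4.56 and 12.6 CPM in the 6 samples and was not called, and Col15a1 had at most 3 counts in any sample.

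**Figure D3:**
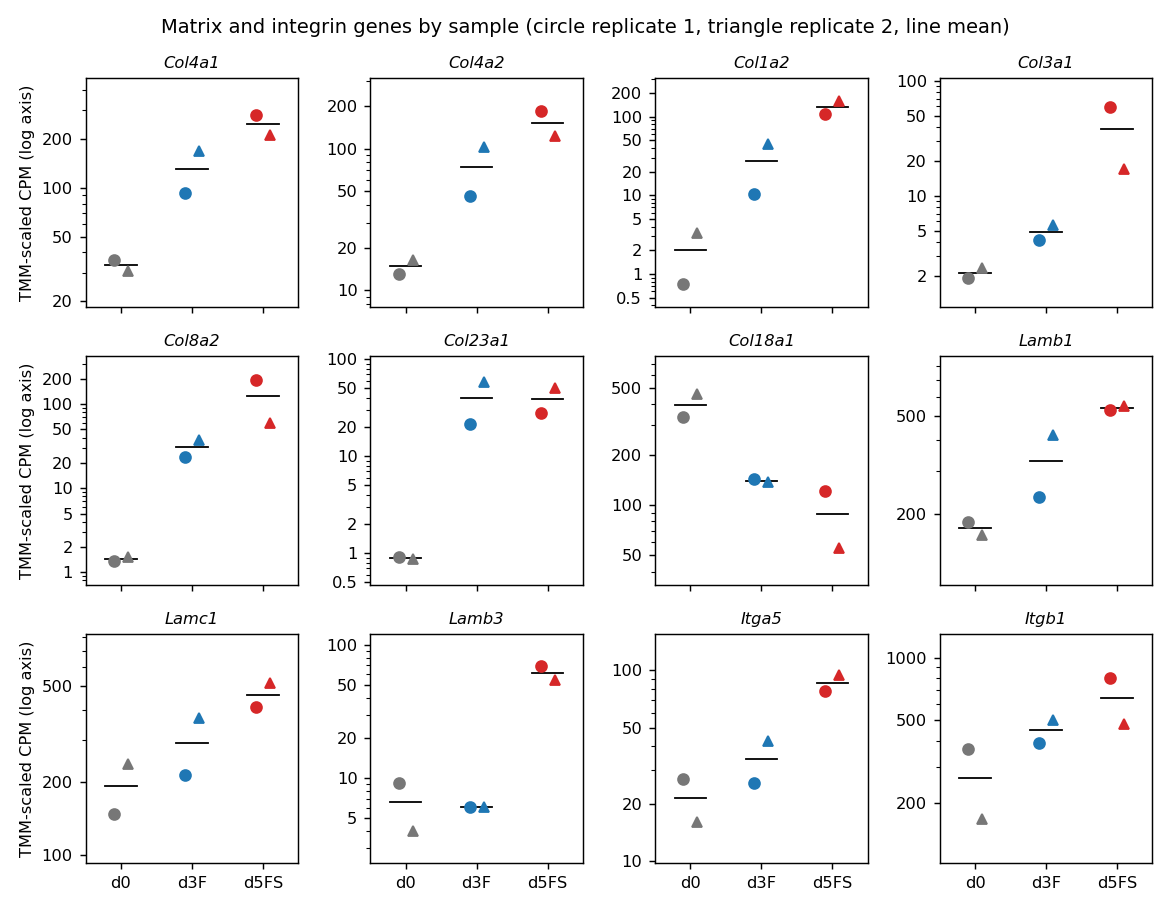
TMM-scaled CPM (y axes, log scale, 1 panel per gene) in d0, d3F and d5FS (x axis), with replicate 1 as circles, replicate 2 as triangles and the mean as a line. Col4a1 and Col4a2 stand apart in all 3 populations, Col23a1 is as high in d3F as in d5FS, Lamb3 is high in d5FS alone of the 3, and Col18a1 is highest in d0.

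All 11 fibrillar collagens were tested, and 5 were higher in d5FS than in d0. Col1a2, a chain of type I collagen, was at 0.746 and 3.28 CPM in d0, 10.4 and 45.02 CPM in d3F, and 110 and 156 CPM in d5FS. Each population lay above the one before it without overlap. It rose by 3.79 ± 0.83 from d0 to d3F (adjusted p = 0.0416) and by 6.06 ± 0.91 from d0 to d5FS (adjusted p = 0.00449). The d0 to d3F call was lost in 4 of the 6 fits that left out a sample (without d0 replicate 1, d3F replicate 2 and either d5FS sample). Its partner chain Col1a1 was above Col1a2 in both d0 samples, at 2.59 and 7.02 CPM. In d5FS Col1a1 was far below it, at 30.4 and 14.6 CPM. The rise of Col1a1 from d0 to d5FS was called (2.23 ± 0.58, adjusted p = 0.0275), and this call was lost without d0 replicate 1 or d5FS replicate 1.

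Col3a1, the type III collagen chain, was at 1.93 and 2.36 CPM in d0, 4.14 and 5.61 CPM in d3F, and 59.1 and 17.1 CPM in d5FS. The d5FS samples lay above all others but differed from each other more than the d0 and d3F samples did. The rise from d0 was 4.15 ± 0.62 (adjusted p = 0.00441), and that from d3F, 2.97 ± 0.58, had an adjusted p of 0.0509. Col5a1, a type V chain that starts fibrils, had its highest mean in d3F (53.3 and 115 CPM, against 19.5 and 11.2 CPM in d0 and 70.0 and 28.6 CPM in d5FS). The d3F rise was called (2.45 ± 0.55, adjusted p = 0.046), though not without d0 replicate 2 or d3F replicate 2, and the d5FS difference of 1.68 had an adjusted p of 0.0557. The minor fibril chains Col11a1 and Col11a2 were higher in d5FS than in d0, with log2 fold changes of 2.40 ± 0.60 (adjusted p = 0.0244) and 2.38 ± 0.62 (adjusted p = 0.0278). Col11a1 was called in neither fit without a d0 sample nor in that without d5FS replicate 1, and Col11a2 was called in 1 of the 6 fits. Col2a1, the cartilage collagen and the highest fibrillar chain of d0 per kilobase, was at 13.6 and 7.54 CPM in d0 and 42.1 and 15.4 CPM in d5FS (1.44, adjusted p = 0.0814). Col5a2, Col5a3, Col24a1 and Col27a1 were not called, with d0 to d5FS differences between -2.04 and 1.83.

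Of 10 markers of fibroblasts and smooth muscle 8 were tested. In d5FS 2 of these, Acta2 and Postn, were higher than in d0, beside 12.4% of all genes tested. Acta2, the smooth muscle actin, was at 12.5 and 13.02 CPM in d0, 34.9 and 42.2 CPM in d3F, and 586 and 301 CPM in d5FS, and was called in all 3 comparisons. Postn rose from 0.570 and 0.359 CPM to 31.3 and 6.13 CPM. Tagln, the highest of the list at 1208 and 603 CPM in d5FS, was not called (2.25 from d0, adjusted p = 0.0541). The median log2 fold change of the 8 tested markers from d0 to d5FS was 1.35, beside 0.02 over all genes tested. The TPM of the 10 markers summed to 158 and 15.8 for the d0 samples, 156 and 145 for d3F, and 519 and 167 for d5FS. Fap had 0 counts in all 6 samples, which allows up to 0.122 to 0.172 CPM (3 counts, counting error only), Lum stayed at or below 0.0505 CPM and Dcn at or below 0.745 CPM. Other fibroblast markers were above these levels without passing: Pdgfrb was at 0.921 and 2.82 CPM in d0, 4.59 and 7.53 CPM in d3F, and 3.29 and 1.72 CPM in d5FS (0.43 from d0, adjusted p = 0.667), and Thy1 at 3.07 and 1.49 CPM, 1.54 and 0.152 CPM, and 1.02 and 0.459 CPM (-1.62, adjusted p = 0.245). Prrx1 and Twist2 stayed at or below 1.99 and 1.62 CPM and were not called from d0 to d5FS (2.24, adjusted p = 0.0797, and -1.24, adjusted p = 0.355). The part of such cells, or of feeder cells, in the collagen values was not tested.

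The 9 fibril-associated collagens included 6 with enough counts, 3 of which were higher in d5FS than in d0. Col14a1, which binds the surface of fibrils, was transient: 0.614 and 0.410 CPM in d0, 6.90 and 20.6 CPM in d3F, and 1.59 and 3.10 CPM in d5FS. No population overlapped another. It rose by 4.72 ± 0.72 from d0 to d3F (adjusted p = 0.0142), a call lost without d3F replicate 2, and the later difference of -2.55 did not pass (adjusted p = 0.0896). Col12a1 (2.66 ± 0.68, adjusted p = 0.0268), Col16a1 (2.12 ± 0.65, adjusted p = 0.0467) and Col9a3 (1.58 ± 0.46, adjusted p = 0.0404) were higher in d5FS. Col9a3 was the highest of the group per kilobase in d5FS and was even between replicates there (9.51 and 9.18 CPM), while Col12a1 was not (19.5 and 4.82 CPM). Col12a1 was called in 3 of the 6 fits that left out a sample, Col9a3 in 1 and Col16a1 in 0. Col9a2, the highest of the group in d0 with 5.0 and 14.2 CPM, was at 3.35 and 0.573 CPM in d5FS (-2.29, adjusted p = 0.0811).

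Among 9 microfibril and network collagens, Col8a2 stood out. This type VIII chain, known from the basement membrane of the corneal endothelium and from vessel walls, was at 1.36 and 1.54 CPM in d0, 23.6 and 37.6 CPM in d3F, and 193 and 59.4 CPM in d5FS. The populations did not overlap, although the d5FS samples were far apart. It rose by 4.40 ± 0.61 from d0 to d3F (adjusted p = 0.0116) and by 6.44 ± 0.66 from d0 to d5FS (adjusted p = 0.00173). In d5FS it took 93.0% of the summed level per kilobase of its group. Its partner Col8a1 was much lower, at 0.0877 and 0.564 CPM in d0 and 8.11 and 1.61 CPM in d5FS (3.91 ± 1.02, adjusted p = 0.0282), and was not called without d0 replicate 1 or d5FS replicate 1. The microfibril chain Col6a5 fell from 1.36 and 1.69 CPM to 0.0567 and 0.344 CPM (-2.89 ± 0.85, adjusted p = 0.0422), a call made in 0 of the 6 fits that left out a sample. Col6a1, Col6a2, Col6a3, Col6a4 and Col10a1 were not called, and Col6a2, the highest of the group in d0, was at 2.02 and 1.23 CPM there.

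Col23a1, a transmembrane collagen, was the clearest early change. It was at 0.921 and 0.871 CPM in d0, 21.6 and 57.8 CPM in d3F, and 27.9 and 50.3 CPM in d5FS. The d0 samples lay below all others, and d3F and d5FS overlapped. The rise was 5.46 ± 0.61 to d3F (adjusted p = 0.00786) and 5.44 ± 0.61 to d5FS (adjusted p = 0.00208), with a d3F to d5FS difference of -0.02 ± 0.49. Col26a1, the highest of these collagens in d0, was at 0.526 and 2.41 CPM there and was not called, nor were Col13a1, Col17a1 and Col25a1.

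Of the 11 laminin chains 10 were tested, and 4 were higher in d5FS than in d0: 1 alpha, 2 beta and 1 gamma chain. In all 3 populations the leading chains per kilobase were Lama5, Lamb1 and Lamc1. Lamb1 was at 187 and 165 CPM in d0, 236 and 421 CPM in d3F, and 529 and 549 CPM in d5FS. The populations did not overlap. Its rise to d5FS was 1.62 ± 0.35 (adjusted p = 0.0154), while the steps to d3F (0.90, adjusted p = 0.182) and from d3F (0.71, adjusted p = 0.316) did not pass, and the call was lost without d0 replicate 2 or either d5FS sample. Lamc1, the common gamma chain, was at 148 and 238 CPM in d0, 214 and 370 CPM in d3F, and 409 and 514 CPM in d5FS, with overlap of d0 and d3F. Lama5 was at 277 and 248 CPM, 392 and 464 CPM, and 650 and 430 CPM, with overlap of d3F and d5FS. Both passed only just from d0 to d5FS (1.26 ± 0.39, adjusted p = 0.048, and 1.04 ± 0.32, adjusted p = 0.0496). Neither was called in any of the 6 fits that left out a sample.

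Lamb3, the beta chain of epithelial anchoring laminin, changed late. It was at 9.17 and 3.998 CPM in d0, 6.05 and 6.11 CPM in d3F, and 69.2 and 54.7 CPM in d5FS. Both d5FS samples lay far above the others, and d0 and d3F overlapped. The difference from d3F to d5FS was 3.35 ± 0.45 (adjusted p = 0.0191) and that from d0 to d5FS 3.23 ± 0.44 (adjusted p = 0.00356). Lama3, the alpha chain of that trimer, did not pass. It was at 4.61 and 6.15 CPM in d0 and 6.98 and 1.38 CPM in d5FS (-0.36, adjusted p = 0.749).

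Lama1, the alpha chain typical of the first embryonic basement membranes, was at 15.0 and 37.7 CPM in d0, 7.19 and 23.4 CPM in d3F, and 23.4 and 30.2 CPM in d5FS. All populations overlapped, and the d0 to d5FS difference was 0.03 ± 0.60 (adjusted p = 0.98). Per kilobase, Lama5 was 5.47 to 45.4 times as high as Lama1 in the 6 samples. Lama2 (2.74, adjusted p = 0.0505), Lama4 (0.67, adjusted p = 0.485) and Lamb2 (1.10, adjusted p = 0.117) were not called from d0 to d5FS, although both d5FS samples of Lama2 and of Lamb2 lay above both d0 samples. Lama4 was highest in d3F, at 3.65 and 13.6 CPM against at most 2.52 CPM elsewhere (2.5 from d0, adjusted p = 0.0698). Lamc3 had at most 16 counts in a sample and was not tested.

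**Figure D4:**
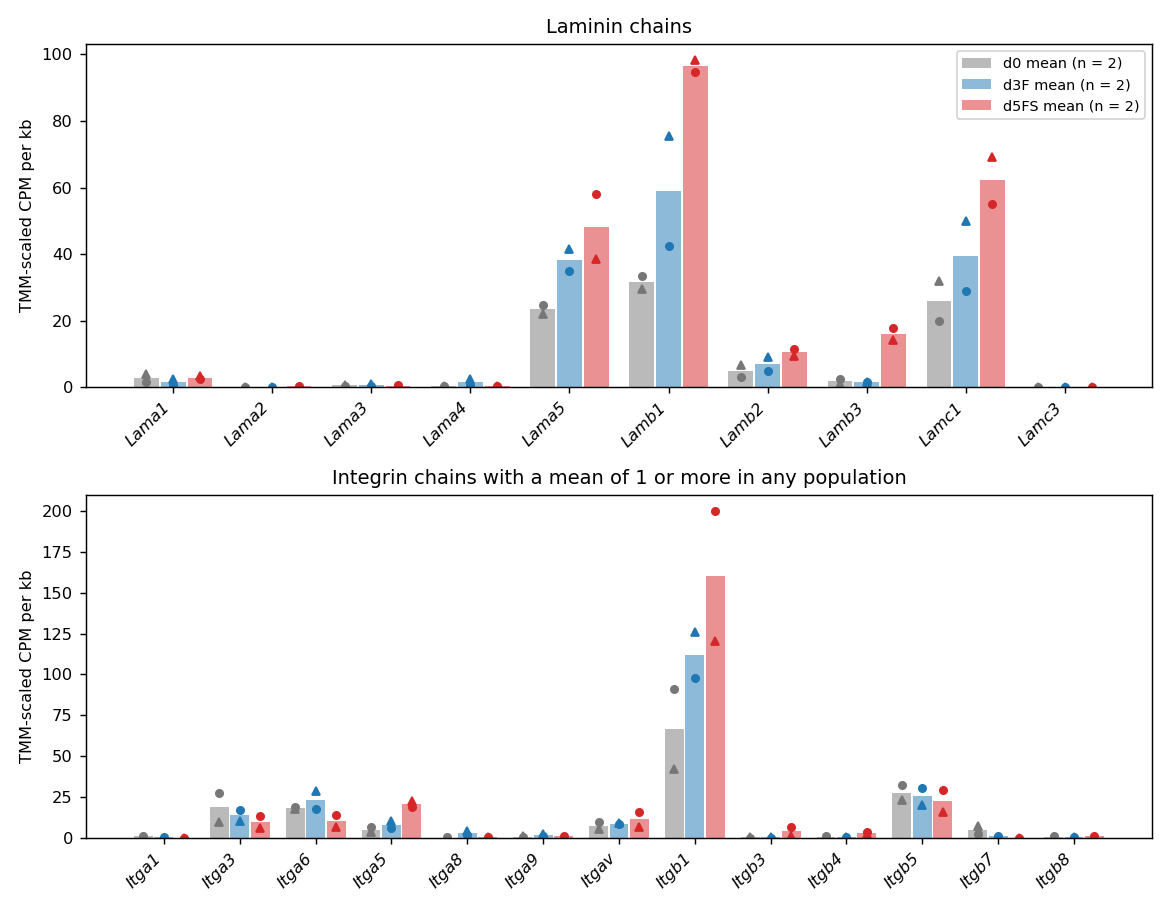
TMM-scaled CPM per kilobase of effective length (y axes, from 0) of 10 of the 11 laminin chains (top) and of the integrin chains with a population mean of 1 or more (bottom), with bars as means of 2 samples and points as samples (circles replicate 1, triangles replicate 2). Lama5, Lamb1 and Lamc1 lead the laminins and Itgb1 the integrins in d0, d3F and d5FS.

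Among the integrins, the alpha subunits that bind collagen were low, and the highest subunit did not pass the test in any comparison. Itgb1, the beta subunit shared by the collagen and laminin receptors, was at 363 and 168 CPM in d0, 391 and 505 CPM in d3F, and 798 and 481 CPM in d5FS. The d5FS and d3F samples lay above both d0 samples. The d0 to d5FS difference of 1.27 ± 0.44 had an adjusted p of 0.0699. It was the highest integrin subunit per kilobase in each population, at 66.6 ± 34.8, 112 ± 20 and 160 ± 56.2 CPM per kilobase (SD, n = 2), and the highest of all 83 genes in d3F and d5FS.

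The alpha subunits that bind laminin were Itga3 and Itga6 at similar levels and Itga7 far below. Itga6 was at 108 and 101 CPM in d0, 103 and 164 CPM in d3F, and 79.9 and 39.2 CPM in d5FS, with both d5FS samples below the rest (-0.81 ± 0.40 from d0, adjusted p = 0.169). Itga3 was at 128 and 47.0 CPM, 79.2 and 49.6 CPM, and 62.5 and 27.5 CPM, with overlap throughout (-0.96 ± 0.55, adjusted p = 0.231). Itga7 lay between 1.05 and 4.46 CPM in all samples (-0.54, adjusted p = 0.622). The 3 subunits did not pass edgeR's test in any comparison. Itgb4, the subunit that joins Itga6 in hemidesmosomes, was at 6.18 and 4.87 CPM in d0, 3.33 and 2.48 CPM in d3F, and 22.5 and 13.6 CPM in d5FS. Both d5FS samples were the highest. It rose by 2.63 ± 0.43 from d3F (adjusted p = 0.031) and by 1.71 ± 0.42 from d0 (adjusted p = 0.0231).

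Lamb3 and Itgb4 were the 2 genes called from d3F to d5FS. Both calls were lost when either d3F sample or either d5FS sample was left out. Calls over all genes tested also became fewer without d3F replicate 2 or either d5FS sample. No count over all genes is given for the fit without d3F replicate 1. The cause of the loss was not tested. Without d5FS replicate 2 Col3a1 was called instead (3.60, adjusted p = 0.0408), and 5 genes were higher without either d0 sample. The fitted change of Lamb3 stayed between 3.15 and 3.50 and that of Itgb4 between 2.21 and 2.95 in those 6 fits. The d0 to d5FS call of Itgb4 was lost without d0 replicate 2 or d5FS replicate 1.

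Collagen-binding alpha subunits were at low levels. Itga1 fell from 6.67 and 5.28 CPM in d0 to 1.48 and 0.803 CPM in d5FS (-2.38 ± 0.63, adjusted p = 0.0297), with no overlap, and was not called without d0 replicate 1 or either d5FS sample. Itga10 lay between 0.263 and 0.738 CPM (0.47, adjusted p = 0.67). Itga2 and Itga11 had too few counts to be tested. Itga11 held 49 counts in d5FS replicate 1 and at most 9 in any other sample, and Itga2 at most 3.

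Receptors for fibronectin and other ligands with the RGD peptide rose in part. Itga5, the fibronectin receptor subunit, was at 26.9 and 16.0 CPM in d0, 25.8 and 42.5 CPM in d3F, and 78.3 and 94.3 CPM in d5FS. Both d5FS samples lay above the rest, and d0 and d3F overlapped. The rise from d0 was 2.01 ± 0.39 (adjusted p = 0.0104). Itgb3, which pairs with Itgav or Itga2b, was at 1.27 and 2.97 CPM in d0, 1.14 and 3.28 CPM in d3F, and 37.1 and 8.83 CPM in d5FS (3.44 ± 0.82 from d0, adjusted p = 0.0213), a call lost without d0 replicate 1 or d5FS replicate 1. Itgb6, another partner of Itgav, was at 0.132 and 0.103 CPM in d0 and at 1.02 and 1.15 CPM in d5FS (3.14 ± 0.76, adjusted p = 0.0223), and was called in 0 of the 6 fits that left out a sample. Itgav itself, at 67.0 and 38.3 CPM in d0 and 109 and 47.5 CPM in d5FS (0.57, adjusted p = 0.367), and Itgb5, at 99.1 and 71.2 CPM in d0 and 90.5 and 49.3 CPM in d5FS (-0.28, adjusted p = 0.621), overlapped between populations. Itga8, a receptor for nephronectin, was highest in d3F: 2.33 and 0.615 CPM in d0, 12.2 and 24.3 CPM in d3F, and 3.18 and 4.59 CPM in d5FS. Its d0 to d3F rise was 3.62 ± 0.67 (adjusted p = 0.0254), lost without d0 replicate 2, d3F replicate 2 or d5FS replicate 2.

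Itgb7, Itgal and Itgae, integrin subunits best known from leukocytes, had their highest mean in d0, whereas Itgb2 had its lowest mean there. Itgb7 was at 6.23 and 19.0 CPM in d0, 3.82 and 1.97 CPM in d3F, and 0.511 and 0.803 CPM in d5FS. No population overlapped another. The fall to d5FS was called (-4.25 ± 0.72, adjusted p = 0.00653), though not without d5FS replicate 1. Itgal, the alpha subunit of LFA-1, was at 1.45 and 5.02 CPM in d0, 0.162 and 0.202 CPM in d3F, and 0.114 and 0.459 CPM in d5FS, and was lower in d3F (-4.11 ± 0.91, adjusted p = 0.0435) and in d5FS (-3.47 ± 0.89, adjusted p = 0.0266). Its d5FS call was lost without d0 replicate 2 or either d5FS sample. Itgae, a partner of Itgb7, was at 0.833 and 3.95 CPM in d0 and 0.340 and 0.459 CPM in d5FS (-2.56, adjusted p = 0.0687). Itgb2, the beta subunit of LFA-1, was at 0.483 and 0.308 CPM in d0, 0.568 and 0.556 CPM in d3F, and 0.511 and 1.09 CPM in d5FS. It was not called in any comparison (1.00 from d0 to d5FS, adjusted p = 0.323). Of 8 blood cell markers, Ptprc, Cd53, Lyz2, Tyrobp and Fcer1g were at or below 0.202 CPM in every sample, whereas Coro1a, the highest, was at 18.2 and 16.1 CPM in d0, and it and Laptm5 were lower in d3F and d5FS. The summed TPM of the 8 was 5.78 to 11.3 in d0, 1.10 to 2.43 in d3F and 0.73 to 0.80 in d5FS. The summed TPM of 6 endothelial markers was also highest in d0 (4.86 to 6.62, against at most 0.89 later). Of these, Pecam1, at 13.8 and 27.5 CPM in d0, Tek, Cldn5 and Esam were lower in d5FS. Cdh5 was higher in d3F (0.284 and 1.36 CPM) than in d0 (0.0439 and 0.103 CPM) without being tested, and Emcn had counts in d5FS replicate 2 alone (0.0573 CPM).

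The remaining genes were Itga2b, Itga4, Itga9 and Itgb8, which were not called, and 14 genes with too few counts: Col15a1, Col19a1, Col20a1, Col28a1, Col6a6, Col9a1, Itga2, Itga11, Itgad, Itgam, Itgax, Itgb2l, Itgbl1 and Lamc3. No sample held more than 49 counts of any of the 14. Itgax had 0 counts in all 6 samples. Together with Col7a1, Col22a1 and the other genes named above as not called, this accounts for all 83 genes, of which 32 were called in at least 1 comparison.

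The replicates of d5FS differed in these genes. With 0.5 added to each CPM, 48 of the 69 tested genes were higher in d5FS replicate 1, with a median log2 ratio of 0.60 to replicate 2 beside -0.02 over all genes tested, and 36.2% of them differed by more than 1 log2 unit, beside 10.8% of all genes. For the 38 collagens the median was 0.97. In d0 and d3F the medians over the 69 genes were 0.00 and -0.24, with 29.0% and 14.5% beyond 1 log2 unit (15.5% and 6.73% of all genes). The d5FS gap was wide for Col3a1, Col8a2, Col12a1 and Itgb3 and ran the other way for Col1a2 (110 and 156 CPM), Lamc1 (409 and 514 CPM) and Itga5 (78.3 and 94.3 CPM).

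**Figure D5:**
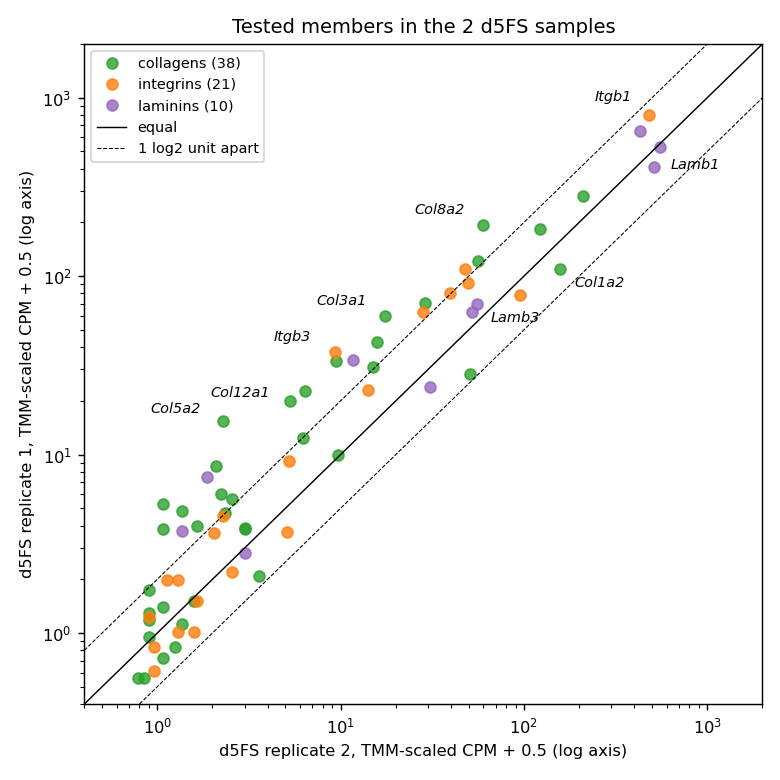
TMM-scaled CPM + 0.5 of the 69 tested genes in d5FS replicate 1 (y axis, log scale) against d5FS replicate 2 (x axis, log scale), with collagens, integrins and laminins coloured; the solid line marks equal values and the dashed lines a difference of 1 log2 unit. Of the 69 points 48 lie above the solid line, and 25 lie outside the dashed lines.

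Summed CPM gave the scale of the 3 families. The 44 collagens summed to 474 and 600 CPM in d0, 490 and 777 CPM in d3F, and 1284 and 792 CPM in d5FS. The 11 laminins summed to 705 and 759 CPM, 903 and 1371 CPM, and 1789 and 1646 CPM, with no overlap between populations. The 28 integrins summed to 834 and 499 CPM, 793 and 947 CPM, and 1308 and 782 CPM, with overlap. In the deposited TPM, which depend on the amount of very short RNAs in a library, the sums for d0, d3F and d5FS were 49.3 ± 16.4, 56.7 ± 3.53 and 75.3 ± 46.2 for collagens, 46.6 ± 22, 76.9 ± 2.65 and 92.0 ± 31.1 for laminins, and 82.0 ± 64.6, 107 ± 27 and 98.6 ± 60.9 for integrins (SD, n = 2). For collagens and integrins these TPM sums differed between populations by less than the widest of their SDs. For laminins, d0 and d5FS differed by more than the widest SD. The collagen sum of d3F differed from the others by more than its own SD.

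The partners of these genes were read in the same way. Over all genes tested, 12.4% were higher and 10.4% lower in d5FS than in d0, and 2.80% and 1.90% in d3F. Of 16 basement membrane linkers, all tested, 5 were higher and 1 lower in d5FS than in d0 (median log2 fold change 0.94). Smoc2 (5.63 ± 0.63, adjusted p = 0.00205) and Frem1 (4.20 ± 0.65, adjusted p = 0.00495) rose most, Smoc1 fell (-2.92 ± 0.44, adjusted p = 0.00448), and Smoc2 and Frem1 were among 3 already higher in d3F. Tinagl1 was the 1 linker called from d3F to d5FS (2.41 ± 0.33, adjusted p = 0.0193). Sparc, a collagen-binding protein abundant in endodermal basement membranes, was at 158 and 125 CPM in d0, 124 and 311 CPM in d3F, and 617 and 600 CPM in d5FS (2.11 ± 0.44 from d0, adjusted p = 0.014). Nid1, which links laminin to type IV collagen, and Hspg2, which encodes perlecan, did not pass (-0.06, adjusted p = 0.94, and 0.05, adjusted p = 0.947). Of 7 other adhesive ligands, 1 was higher and 1 lower both in d3F and in d5FS than in d0. These were Tnc (3.27 ± 0.50 to d5FS, adjusted p = 0.0047) and Spp1 (-3.11 ± 0.49, adjusted p = 0.00501), whereas Fn1 was between 133 and 479 CPM with overlap of all populations (0.08).

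Genes that process collagen moved as well. Of 31 enzymes and chaperones 30 were tested. In d5FS, 9 were higher and 2 lower than in d0 (median 0.66), beside 12.4% and 10.4% of all genes tested. In d3F, 4 were higher and 1 lower, beside 2.80% and 1.90%. Serpinh1, the chaperone of procollagen, was at 108 and 80.1 CPM in d0, 340 and 657 CPM in d3F, and 792 and 596 CPM in d5FS. All later samples lay above d0, and d3F and d5FS overlapped. The rise was 2.40 ± 0.41 to d3F (adjusted p = 0.0182) and 2.88 ± 0.42 to d5FS (adjusted p = 0.00422). The procollagen protease Tll1 rose from 3.11 and 1.64 CPM to 38.4 and 30.2 CPM in d5FS (3.84 ± 0.45, adjusted p = 0.00249). P4ha3, a prolyl hydroxylase subunit, had 0 counts in both d0 samples and was at 1.19 and 0.974 CPM in d5FS. The enhancers of procollagen processing Pcolce and Pcolce2 fell (-2.04 ± 0.35, adjusted p = 0.00706, and -1.55 ± 0.37, adjusted p = 0.0209), and Adamts3 was, after Tll1, the d3F call with the larger rise to d5FS (2.96 ± 0.71, adjusted p = 0.0214).

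On the receptor side, 20 of 22 integrin adaptors were tested, and 2 were higher and 1 lower in d5FS than in d0 (median 0.38). These shares are no larger than the 12.4% and 10.4% of all genes tested. The genes were Tns1 (1.91 ± 0.58, adjusted p = 0.0458), Ilk (1.67 ± 0.40, adjusted p = 0.0216) and Tns3 (-2.02 ± 0.36, adjusted p = 0.00826). In d3F, Tln2 was higher (1.37 ± 0.29, adjusted p = 0.0368) and Tns3 lower. Of 10 other matrix receptors, Cd44 (2.43 ± 0.69, adjusted p = 0.0372) and the tetraspanin Cd151 (1.57 ± 0.36, adjusted p = 0.0183), a partner of laminin-binding integrins, were higher in d5FS, while Cd44 was higher and Sdc4 lower in d3F. Dag1, which encodes dystroglycan, did not pass (-0.80). Of 9 proteases and inhibitors 5 were higher in d5FS (median 1.60), among them Mmp15 (2.52 ± 0.37, adjusted p = 0.00441).

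Type IV collagen and laminin are also abundant in extraembryonic endoderm, so its markers were read beside them. Of 7 parietal endoderm markers 5 were higher in d5FS than in d0, beside 12.4% of all genes tested. Their summed TPM was 0.86 to 4.26 in d0, 7.61 to 7.97 in d3F and 8.36 to 15.0 in d5FS, with Dab2 the highest at 33.3 and 29.8 CPM in d5FS and Sox7 at or below 1.82 CPM throughout. Of 6 visceral endoderm markers 4 were higher in d5FS than in d0, with summed TPM of 29.0 to 39.1, 10.2 to 18.2 and 37.9 to 46.5. Apoa1 was the highest of these in d5FS at 23.9 and 47.6 CPM, and Ttr and Afp were at 10.7 and 20.2 CPM and at 6.13 and 25.3 CPM. In d0 Apoa1, Ttr and Afp were at or below 0.359 CPM. Most of the d0 sum was Rhox5, at 25.4 and 75.25 CPM in d0 and 21.8 and 36.3 CPM in d5FS. Neither Rhox5 (-0.79, adjusted p = 0.282) nor Amn (0.82, adjusted p = 0.379) was called from d0 to d5FS. The part of such cells in the matrix genes was not tested.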

How the data were processed

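RNA-seq of d0, d3F and d5FS cells was used, with 2 samples per population that the study calls independent biological replicates. Per the labels and the study's methods, the authors depleted ribosomal RNA, prepared libraries with a TruSeq V2 kit, sequenced paired ends, aligned reads to mm10 (GRCm38) with STAR and counted genes with RSEM. The versions of STAR and RSEM and the annotation are not given in the sources used here, and no strand setting is stated. The expected counts that the authors deposited are RSEM estimates of fragments per gene, without normalization. The deposited TPM values are scaled by RSEM for effective length and to the same total per sample. The effective lengths deposited by the authors were used to express CPM per kilobase. The other deposited columns were not used.

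Expected counts (16457728 to 22768686 per sample) were rounded to whole numbers. Genes were kept by filterByExpr (14539 genes), scaled by TMM and tested with glmQLFit and glmQLFTest of edgeR 4.0.16 in R 4.3.3, with a mean per population, a prior count of 0.125 for fold changes and 3 residual degrees of freedom. The study itself used DESeq2, and DESeq2 1.42.0 was used as an alternative. A call needed an adjusted p (Benjamini-Hochberg, over all genes tested) below 0.05 and a change of more than 1 log2 unit. The standard error of each log2 fold change was derived from the F statistic of its test. With 2 samples against 2, an exact permutation test cannot give a p below 0.33, so none was run. CPM per kilobase, used to compare genes, was chosen after seeing the data, because genes with an effective length under 150 bases took 54.1% to 76.6% of the deposited TPM. Levels below 3 counts are at the counting floor, and such floors cover counting error only. The script was tested on simulated data.

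The genes, their role groups and the lists of partners and cell type markers were chosen with earlier results of these data known, and no list is independent evidence of its direction. The genes named are those called in at least 1 comparison, the highest gene of each role group in each population, every chain of type IV collagen, laminin and the laminin- or collagen-binding integrins, and all genes removed by the filter. For partner lists the called genes of each comparison were ranked by their d0 to d5FS change and the 2 that rose most and 2 that fell most are named, together with Fn1, Sparc, Nid1, Hspg2, Serpinh1 and Dag1. For cell type lists the summed TPM and the highest marker are given. Other genes named were chosen after their values were seen. Of the genes these rules name, 2 are not reported here. The lists cover fibroblast and smooth muscle, parietal and visceral endoderm, blood cell, endothelial, ESC and definitive endoderm markers. Alternatives were DESeq2 size factors, no filter or at least 10 counts in every sample, the DESeq2 Wald test with the same thresholds or against a log2 fold change of 1, glmTreat, a replicate block, a fit restricted to the compared populations, and fits that left out 1 sample. Gene positions are those of GENCODE M21 and upstream sequences those of RefSeq on GRCm38.p6. Figures used Python 3.11.15, pandas 2.3.3 and matplotlib 3.10.9.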

Additional observations from a re-analysis of the deposited data

How the results depend on the processing

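With 2 samples per population, every count is imprecise, and most counts moved when a sample was left out: 2 to 9 genes were higher and 0 to 3 lower from d0 to d3F, 0 to 5 higher and 0 to 1 lower from d3F to d5FS, and 8 to 21 higher and 1 to 5 lower from d0 to d5FS. The number of calls over all genes tested also moved in these fits. Such fits assume that the lone sample of a population varies like the others. With at least 10 counts in every sample, 5 genes were higher and 0 lower from d0 to d3F and 2 lower from d0 to d5FS. With no filter, 9 were lower from d0 to d3F, 13 higher and 5 lower from d3F to d5FS, and 8 lower from d0 to d5FS. The DESeq2 Wald test gave 6 lower from d0 to d3F and 11 higher and 3 lower from d3F to d5FS. Against a log2 fold change of 1, DESeq2 gave 5 higher and 0 lower, 4 higher, and 9 higher and 1 lower in the 3 comparisons, and glmTreat 3 higher and 0 lower, 1 higher, and 8 higher and 2 lower. A fit of only the populations compared gave 5 higher and 1 lower from d3F to d5FS. More calls were also made over all genes, in each comparison, with the DESeq2 Wald test and without a filter. The stricter tests ask for a change beyond the threshold by construction. With at least 10 counts in every sample, the lower genes that lost their call were those no longer tested. These were Itgal from d0 to d3F, and Col6a5, Itgal and Itgb7 from d0 to d5FS. Col14a1, higher from d0 to d3F, was not tested in that setting either. The cause of the other shifts was not tested. With DESeq2 size factors no count moved by over 1.5 times. The median of all genes shifted by over 0.1 in the DESeq2 tests (0.14 and 0.12 from d3F to d5FS and d0 to d5FS) and without a filter (0.12 and 0.16). Of the changes of single genes under these alternatives, 1526 kept their call or lack of one, 163 lost a call, 81 gained one, and no called change turned its sign.

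The replicate numbers are shared between populations, but nothing states that equal numbers share a culture or day. Same-numbered samples deviated together (correlations of 0.314, 0.324 and 0.278 for d0 with d3F, d0 with d5FS and d3F with d5FS). With the replicate block, 8 genes were higher and 4 lower from d0 to d3F, 5 higher and 1 lower from d3F to d5FS, and 30 higher and 7 lower from d0 to d5FS. Over all genes tested, the block gave 810 and 510, 476 and 442, and 2318 and 1978, more than the fit without it.

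Summed TPM over genes of 150 bases and more, chosen after seeing the data, was 131.7, 149 and 277 for collagens, 122, 203 and 346 for laminins, and 202, 274 and 362.5 for integrins in d0, d3F and d5FS, since very short RNAs no longer take part of the total. TPM divided by the TMM factor stayed within 1 SD of the deposited sums. Single samples ranged from 37.7 to 60.8, 54.2 to 59.2 and 42.7 to 108 for collagens, from 31.1 to 62.2, 75.0 to 78.8 and 69.95 to 114 for laminins, and from 36.3 to 127.7, 87.6 to 126 and 55.5 to 142 for integrins, in d0, d3F and d5FS.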
